A study of Mus musculus with 22 samples.

Results

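The let-7 family was followed through the fallopian tubes, metastatic tumors and plasma of a mouse model of ovarian cancer that starts in the tube. Its members were taken by name, as the 8 probes mmu-let-7a, mmu-let-7b, mmu-let-7c, mmu-let-7d, mmu-let-7e, mmu-let-7f, mmu-let-7g and mmu-let-7i among 566 probes for mouse miRNAs, without the opposite (star) strands, of which 0 were on the panel. They were counted in 22 samples with the NanoString nCounter assay, in which every miRNA is joined to its own DNA tag and captured by a fluorescent barcode that is counted without amplification. The samples were 5 uninduced control fallopian tubes (CT), 5 doxycycline-induced fallopian tubes (FT), 5 tumors grouped as metastatic (M, of which M6 was an ovarian tumor and the others were peritoneal), 3 control plasma samples (CS2, CS3 and CS4) and 4 plasma samples of tumor-bearing mice (TS). One label field of the TS samples says serum and another says plasma, and they are called plasma here.

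Cre recombinase in these mice is switched on by doxycycline under the control of the Pax8 promoter, which is active in secretory cells of the tube and also in some other epithelia. The control mice were not induced and carried unrecombined floxed alleles. At the Brca genes CT1 and CT3 were Brca1 fl/fl, CT2 was Brca1 fl/+, CT4 was Brca2 fl/fl and CT5 was Brca2 fl/+. Of the induced mice, FT1, FT3 and FT5 were Brca2 -/+, FT2 was Brca1 -/- and FT4 was Brca2 -/-. M1 and M3 were Brca2 -/-, M2 and M6 were Brca1 -/+, and M4 was Brca2 -/+. TS1, TS2, TS3 and TS4 were drawn from the same animals as FT2, FT3, FT4 and FT5 in that order, and CS2, CS3 and CS4 matched CT2, CT3 and CT4. Matching FT and metastatic tumors came from some of the same mice, which the sources used here do not name. The age of the mice is not given in these sources.

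As background, let-7 miRNAs bind partly complementary sites in the 3′ ends of messenger RNAs and lower their translation and stability. They are low in stem cells and rise as tissues mature. RAS, HMGA2, MYC and LIN28 are well known targets, and the LIN28 proteins in turn block the processing of let-7 precursors. Reduced let-7 is a common finding in tumors, which is why the family is called tumor suppressive. Target choice rests chiefly on the seed, bases 2 to 8 of the mature miRNA, so members with one seed are taken to share most targets, and what a cell holds is the sum of them.

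The mature sequences are shown because the balance between members rests on telling apart probes for near-identical RNAs. All 8 members and 2 relatives of similar seed were matched to RefSeq mouse miRNAs (GRCm38.p6). The seed is in capitals.
mmu-let-7a: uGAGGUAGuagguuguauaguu
mmu-let-7b: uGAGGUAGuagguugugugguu
mmu-let-7c: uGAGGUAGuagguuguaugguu
mmu-let-7d: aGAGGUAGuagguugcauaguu
mmu-let-7e: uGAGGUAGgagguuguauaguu
mmu-let-7f: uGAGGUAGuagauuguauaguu
mmu-let-7g: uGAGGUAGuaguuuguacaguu
mmu-let-7i: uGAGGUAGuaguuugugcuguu
mmu-miR-98: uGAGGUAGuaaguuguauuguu
mmu-miR-202-3p: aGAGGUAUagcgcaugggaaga

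All 8 members and miR-98 carried the seed GAGGUAG, and miR-202-3p carried GAGGUAU. Counted from the 5′ end against let-7a, let-7c differed by A19G, let-7e by U9G, let-7f by G12A and let-7b by A17G and A19G. let-7i was the farthest from let-7a, with G12U, A17G, U18C and A19U. Of the 28 pairs of members, 4 differed at 1 base and 8 at 2 bases, and the widest difference, between let-7d and let-7i, was 6 bases. How far a probe also counts a neighbor that differs by 1 base is not given in the sources used here and was not tested.

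The genes lie apart from one another and mostly in clusters. In GRCm38.p6, Mirlet7d (chr13:48536012-48536114), Mirlet7f-1 (chr13:48537829-48537917) and Mirlet7a-1 (chr13:48538179-48538272) lie side by side on the minus strand, with no annotated host gene. Mirlet7c-2 (chr15:85706603-85706697) and Mirlet7b (chr15:85707319-85707403) lie within the long noncoding RNA gene Lncppara. Mirlet7a-2 (chr9:41536716-41536811) lies within Mir100hg, the host gene of Mir100 and Mir125b-1, and Mirlet7c-1 (chr16:77599657-77599750) lies beside Mir99a. Mirlet7e (chr17:17830352-17830444) lies beside Mir125a within Spaca6, Mirlet7g (chr9:106178840-106178927) within Wdr82, and Mirlet7f-2 (chrX:151912346-151912428) beside Mir98 within Huwe1. Mirlet7i (chr10:122985640-122985724) lies alone. Mature let-7a, let-7c and let-7f each come from more than 1 gene, and the probe cannot say which.

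Normalized counts are counts scaled to the top miRNAs (geometric mean), 100 of them for tissue and 30 for plasma. All 8 members were among the 100 in tissue, and all but let-7e were among the 30 in plasma. The scale of a sample thus depends in part on the members, in plasma also on let-7a where its count was 1. The summed miRNA counts of a sample lay between 70164 and 598321 in tissue and between 18350 and 269005 in plasma. The 8 negative controls averaged 7.75 to 31.5 counts per sample. In tissue every member lay above the highest negative control of its sample. In plasma let-7a had 1 count in CS3 and 1 in TS2, below every one of the negative controls there. let-7e did not exceed the highest negative control in TS2 (28 counts against 33) or in TS3 (41 against 41), and let-7a did not in TS1 (30 against 42). FT2 and FT4 stood apart from the other tissue samples, with total counts 894 and 922 times the geometric mean, against 318 to 640 in the other 13 tissue samples. Of the cell type marker lists given next, only smooth muscle and stroma and ciliated epithelium separated M from CT, and none separated FT from CT. The summed normalized counts of 5 smooth muscle and stroma miRNAs were 4713 to 13280 in CT, 3111 to 16868 in FT and 626 to 3821 in M. Those of 5 ciliated epithelium miRNAs were 312 to 3767 in CT, 94.7 to 1774 in FT and 27.9 to 88.3 in M. In M all 5 stayed at or below the highest negative control. The 5 epithelium miRNAs of the miR-200 family summed to 9285 to 11038 in CT, 8247 to 45391.5 in FT and 242 to 42010 in M. The 5 leukocyte miRNAs summed to 593 to 1164 in CT, 785 to 1336 in FT and 967 to 6301 in M. Because whole pieces of tissue were counted, fewer cells of a type and less RNA per cell cannot be told apart.

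The family made up 15.4% to 21.2% of all mouse miRNA counts in CT, 8.4% to 41.8% in FT and 17.8% to 38.8% in M. In plasma it made up 7.99% to 9.85% in CS and 3.84% to 11.8% in TS. It was thus a large part of the miRNA counts in tissue and a smaller one in plasma.

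In the control tubes the balance between members was tight. let-7b held 23.6% ± 2.76 (SD, n = 5) of the family counts and ranked highest in all 5 tubes. let-7g with 18.3% ± 1.57 and let-7c with 18.3% ± 1.47 followed and exchanged places, and the ranges of let-7b and let-7g touched (20.4% and 20.5%). Then came let-7d with 13.5% ± 1.23 and let-7a with 11.9% ± 1.6, whose ranges overlapped. let-7i with 5.82% ± 0.606, let-7f with 4.82% ± 1.37 and let-7e with 3.74% ± 0.691 were the smallest, and the ranges of these 3 overlapped too, while every one of their values lay below every value of let-7a. These are shares of barcode counts, and probes may differ in efficiency, so they order counts and not molecules.

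**Figure D1:**
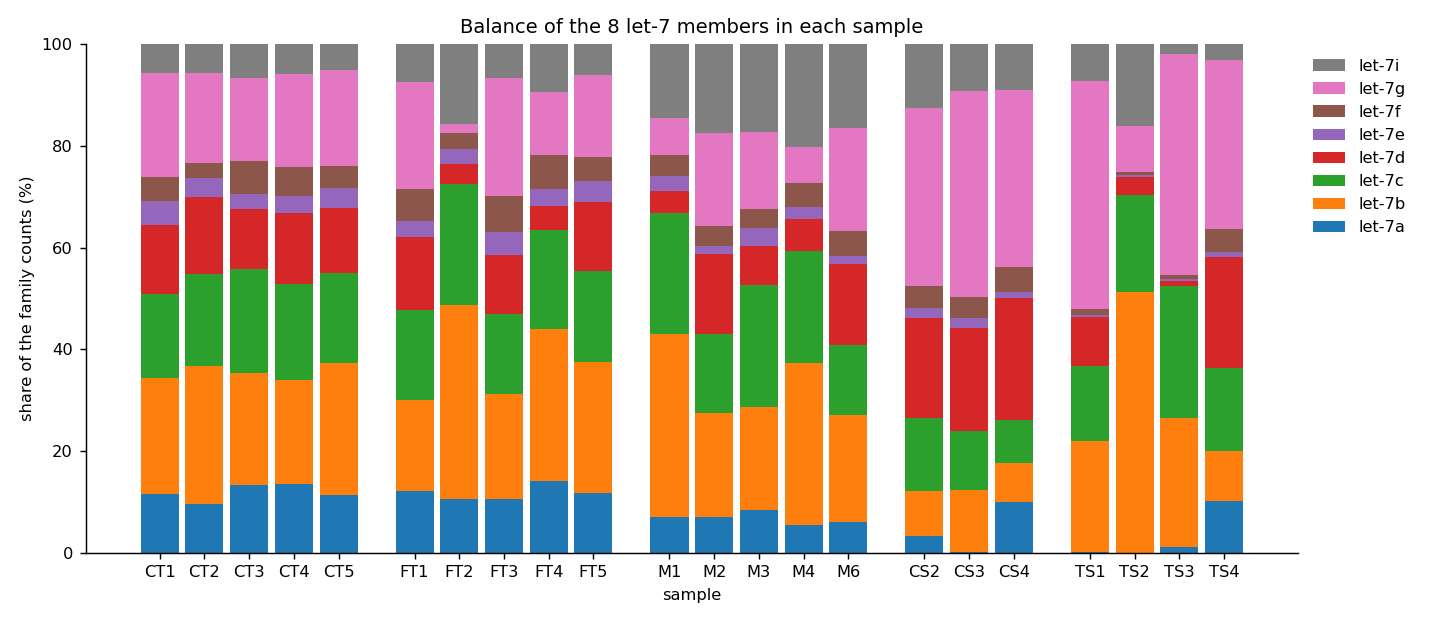
Share of the summed counts of the 8 let-7 members (y axis, %) taken by each member in every sample (x axis; CT control tubes, FT doxycycline-induced tubes, M metastatic tumors, CS control plasma, TS plasma of tumor-bearing mice). The let-7i share is 5.12% to 6.77% in CT and 14.6% to 20.2% in M, let-7g is the largest in all 3 CS samples, and FT2 and TS2 depart most visibly from the rest of their groups.

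Metastatic tumors against control tubes asks how the family differs at the far end of the disease. let-7i was higher in every metastatic tumor than in every control tube, by 6.17-fold, and it was the only member past the threshold. Its normalized counts were 1470, 2246, 2557, 2137 and 1314 in CT1 to CT5 and 15647, 11013, 7304, 19820 and 6258 in M1, M2, M3, M4 and M6. The lowest tumor was the ovarian tumor M6, and it still lay above the highest control. The log2 fold change was 2.63 (SE 0.48, adjusted p = 0.00119 by edgeR over 566 miRNAs), and the two-sided exact permutation test gave p = 0.00794, the smallest that 5 samples against 5 allow. Thus 1 of 8 members passed the test, beside 14.5% of all 566 miRNAs (10.2% in the same direction), and 1 of 8 did not overlap between the groups, beside 12.5% of all.

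The other 7 members had positive log2 fold changes that did not pass the test, and the fold changes of all 8 were above 0, beside 60.1% of all miRNAs. let-7b had 5919, 10847, 8313, 7343 and 6610 normalized counts in CT and 38351, 12845, 8539, 31190 and 8006 in M (log2 fold change 1.34, SE 0.51, edgeR adjusted p = 0.0938). Tumors M1 and M4 stood well above the controls and M3 and M6 lay within their range. let-7c, which differs from let-7b by 1 base, followed the same order of tumors apart from M2 and M3, with 1.24 (SE 0.49, adjusted p = 0.104). let-7f reached 0.89 (SE 0.48, adjusted p = 0.227). The log2 fold changes of let-7e (0.53), let-7g (0.43), let-7d (0.42) and let-7a (0.24) were each about as large as their SE or smaller, with SE between 0.40 and 0.49. The median over the 8 members was 0.71 and over all 566 miRNAs 0.29.

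The call of let-7i did not hold under every scaling. When samples were scaled to the 6 positive hybridization controls its log2 fold change was 1.61 (adjusted p = 0.159), and when they were scaled to the 3 positive ligation controls it was 2.33 (adjusted p = 0.136). These 2 scalings shifted the median of all 566 miRNAs to -0.47 and 0.45. let-7b and let-7c did pass the test with DESeq2, with negative controls subtracted, with either filter on low counts and without M6.

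**Figure D2:**
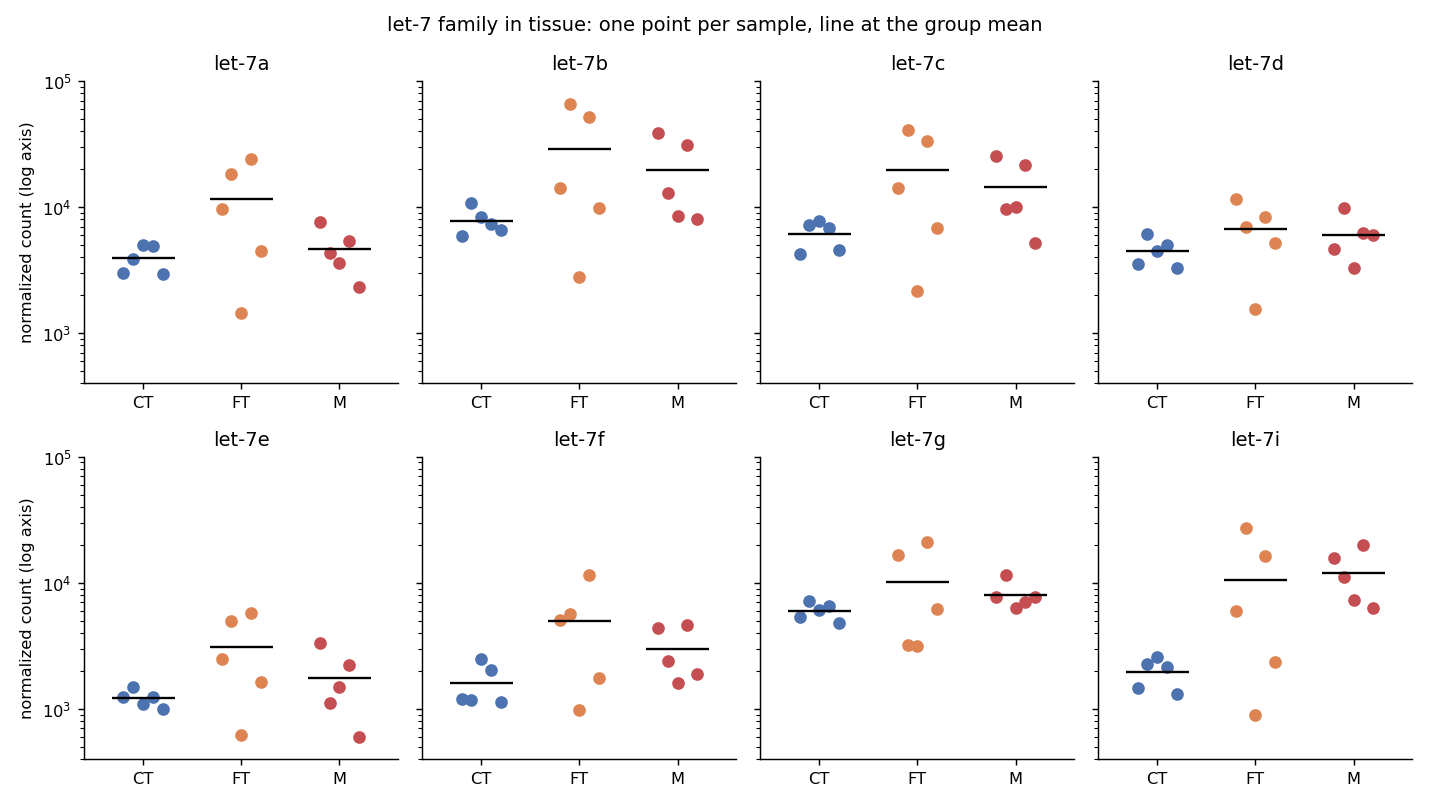
Normalized counts (y axis, log scale) of each let-7 member in 5 control tubes (CT), 5 doxycycline-induced tubes (FT) and 5 metastatic tumors (M), 1 point per sample, with the group mean as a line. All M points of let-7i, from 6258 to 19820, lie above all CT points, from 1314 to 2557, while the FT points of most members span from below to far above the controls.

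The ratio of 2 members in one sample does not depend on how the sample was scaled, and it shows the same shift of balance. let-7i over let-7a was 0.494, 0.582, 0.507, 0.439 and 0.448 in CT1 to CT5 and 2.06, 2.53, 2.04, 3.7 and 2.71 in M1, M2, M3, M4 and M6. let-7i was thus lower than let-7a in every control tube and higher than let-7a in every metastatic tumor. The geometric mean of the ratio was 5.18-fold higher in M (difference in mean log2 ratio of let-7a over let-7i -2.37, SDs 0.352 in M and 0.163 in CT, n = 5 and 5, exact permutation p = 0.00794, adjusted p = 0.0214 over the 8778 pairs of miRNAs averaging 50 counts or more).

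The same held against each other member. let-7i rose 4.67-fold over let-7e, 4.51-fold over let-7d, 4.37-fold over let-7g, 3.24-fold over let-7f, 2.8-fold over let-7c and 2.77-fold over let-7b, and in none of these ratios did a tumor overlap a control. Each had the exact permutation p of 0.00794 and the adjusted p of 0.0214. Of the 28 ratios between members 8 did not overlap between M and CT, which are these 7 of let-7i and let-7a over let-7c. That is 28.6% of the member pairs, beside 37.1% of all 8778 pairs, so the share within the family was not above the background. let-7i was a member of 7 of these 8 ratios.

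let-7a was lower in M relative to let-7b, let-7c, let-7f and let-7i, but not clearly relative to the other members. Its log2 ratios to let-7d, let-7e and let-7g differed by -0.20, -0.15 and -0.25. Their exact permutation p adjusted over all pairs was 0.723, 0.595 and 0.565. let-7a over let-7c was 0.647 as a geometric mean in CT and 0.35 in M (exact permutation p = 0.00794, adjusted p = 0.0214). Its ratios to let-7b and let-7f were also lower in M, 1.87-fold and 1.6-fold, each with an adjusted p of 0.0368, and so was the ratio of let-7e to let-7c, 1.67-fold, with the same adjusted p. In all, 11 of 28 ratios passed at 0.05, beside 43.1% of all pairs. In shares of the family, let-7i went from 5.82% ± 0.606 in CT to 17.2% ± 2.02 in M and let-7a from 11.9% ± 1.6 to 6.81% ± 1.15 (SD, n = 5 each), and the groups did not overlap for either.

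**Figure D3:**
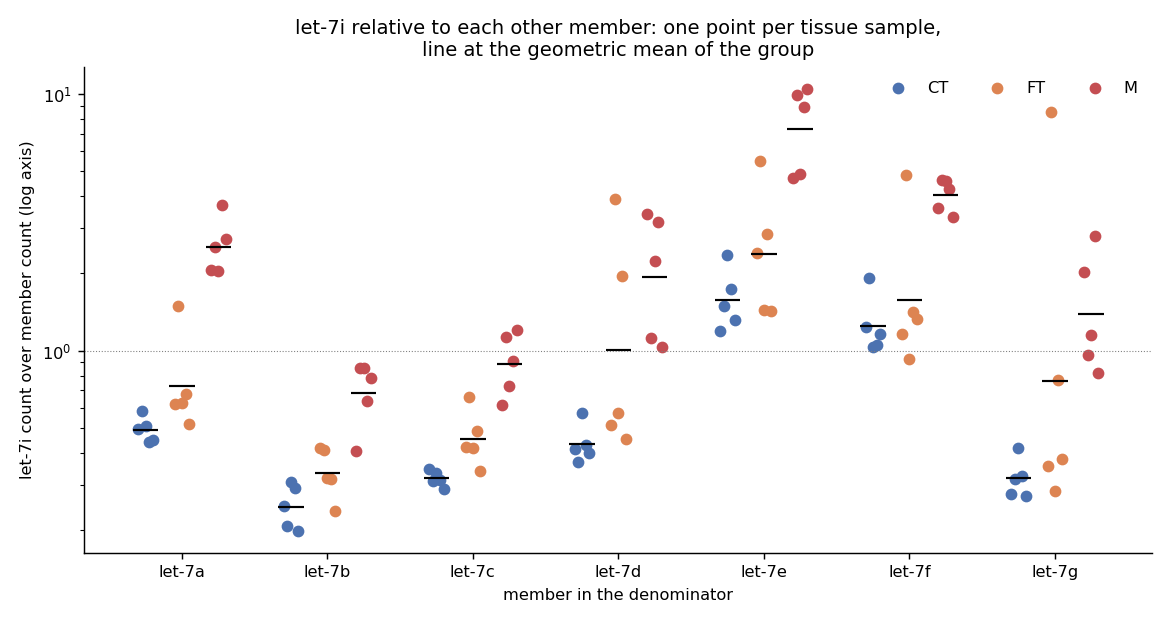
Count of let-7i divided by the count of each other member (x axis) in the same tissue sample (y axis, log scale), 1 point per sample, with the geometric mean of each group as a line; CT control tubes, FT doxycycline-induced tubes, M metastatic tumors. In all 7 ratios the 5 M points lie above the 5 CT points, and 1 FT sample, FT2, is the highest FT point in 6 of them, with FT1 highest for let-7b.

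let-7d and let-7g varied among the tumors. The let-7d share was 4.3% in M1, 15.7% in M2, 7.76% in M3, 6.35% in M4 and 15.9% in M6, and the let-7g share was 7.18%, 18.2%, 15.1%, 7.19% and 20.2% in the same order. M2 and M6 thus held shares of these 2 members within or just above the CT ranges, while M1 and M4, the tumors with the most let-7b, held the least let-7g. Ratios that include let-7d or let-7g overlapped between M and CT except those with let-7i.

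Several other measures moved with let-7i. Across the 15 tissue samples the non-member whose log2 normalized count was most like that of let-7i was miR-126-3p, a miRNA of endothelial cells (Pearson r = 0.961 among 133 non-members averaging 50 counts or more). miR-126-3p was 3830 to 6376 in CT, 2825 to 54989 in FT and 7720 to 19856 in M. Summed with its other arm miR-126-5p, it was 4224 to 6683 in CT, 3205 to 55041 in FT and 7887 to 19897 in M. miR-126-5p was thus a small part of the sum and did not rise with miR-126-3p at the highest FT and M values. The ratio of let-7i to miR-126-3p was 0.343 to 0.422 in CT and 0.419 to 0.998 in M, so these overlapped only at the edge. The 4 housekeeping mRNAs of the panel, on a log2 scale relative to the geometric mean of the top miRNAs, were -0.25 to 1.43 in CT, -0.95 to 4.96 in FT and 2.23 to 5.12 in M, and their r with let-7i was 0.944. For let-7g it was 0.283 and for the other 6 members 0.556 to 0.841. These correlations are descriptions over 15 samples that share scaling factors and groups, and the part of endothelial content or of RNA composition in the let-7i result was not tested.

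Doxycycline-induced tubes against control tubes asks for changes at the site of origin. No member passed the test, and no member separated the groups, because FT3 lay below all controls in let-7i while FT2 lay far above them. The normalized counts of let-7i were 5924, 27178, 897, 16342 and 2341 in FT1 to FT5, and those of let-7b 14219, 66309, 2805, 51463 and 9896. The log2 fold change of let-7i was 2.44 (SE 0.77, edgeR adjusted p = 0.200, exact permutation p = 0.143) and that of let-7b 1.89 (SE 0.76, adjusted p = 0.503). FT2 and FT4 were highest in both, and 4 of the 5 FT exceeded the control mean of let-7i.

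Over all members the fold changes were positive in 8 of 8, beside 57.8% of all miRNAs, with a median of 1.60 against 0.15 for all. At an unadjusted edgeR p under 0.05 there were 6 of 8 members, beside 7.24% of all, but with adjustment 0 of 8, beside 0.177%, which is 1 of 566 miRNAs. The members were correlated with one another, so they are not 8 separate observations. Most also followed the total counts over the geometric mean, highest in FT2 and FT4 (r = 0.936 for let-7b, 0.329 for let-7g, 15 tissue samples). Over 26 settings the log2 fold change was 0.20 to 2.20 for let-7a, 0.16 to 2.26 for let-7c and 0.85 to 3.04 for let-7i. 0 of 8 members did not overlap, beside 0.53%. FT2 lay above every control in let-7i and let-7b but below every control in let-7g, at 3186 against 4823 to 7100. The highest FT sample exceeded the lowest by 6.71-fold in let-7g and by 30.3-fold in let-7i, while in CT these spans were 1.47-fold in let-7g, the smallest, and 2.18-fold in let-7f, the largest. let-7i passed with DESeq2 (adjusted p = 0.0187) and without FT3 (2.73, adjusted p = 0.0245).

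The balance within FT varied most in FT2. There let-7g held 1.84% of the family, against 16.2% to 20.5% in CT and 12.3% to 23.2% in the other 4 FT. let-7d held 4% in FT2 and 4.86% in FT4, against 11.5% to 14.5% in the other 3 FT. let-7i took 15.7% in FT2, a value within the range of M, and 6.1% to 9.48% in the other FT. Of the 28 ratios 0 separated FT from CT without overlap, beside 1.55% of all 9180 pairs. Ratios of let-7a and of let-7c to let-7i were lower in FT, 1.48-fold and 1.43-fold, each at exact permutation p = 0.0159, with adjusted p = 0.659 over all pairs. Without FT5, 3 ratios did not overlap, and the share of all pairs without FT5 was not computed.

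Metastatic tumors against doxycycline-induced tubes compares the late with the early site, and some of these samples came from the same mice, which the test does not take into account. 0 of 8 members passed the test, beside 1.59% of all miRNAs, and 0 of 8 did not overlap, beside 1.41%. At an unadjusted edgeR p under 0.05 there were 0 of 8, beside 8.3%. let-7i alone had a log2 fold change above 0 (0.19, SE 0.89, edgeR adjusted p = 0.993), 1 of 8 beside 56.2% of all, and let-7a had the lowest at -1.32 (SE 0.86, adjusted p = 0.913). In the ratio of let-7i to let-7a every tumor lay above every FT, from 2.04 to 3.7 against 0.518 to 1.49 (3.5-fold, exact permutation p = 0.00794, adjusted p = 0.141 over all pairs). It was the only one of the 28 ratios without overlap, beside 5.62% of 9870 pairs. Without FT2 there were 8, and the share of all pairs without FT2 was not computed.

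**Figure D4:**
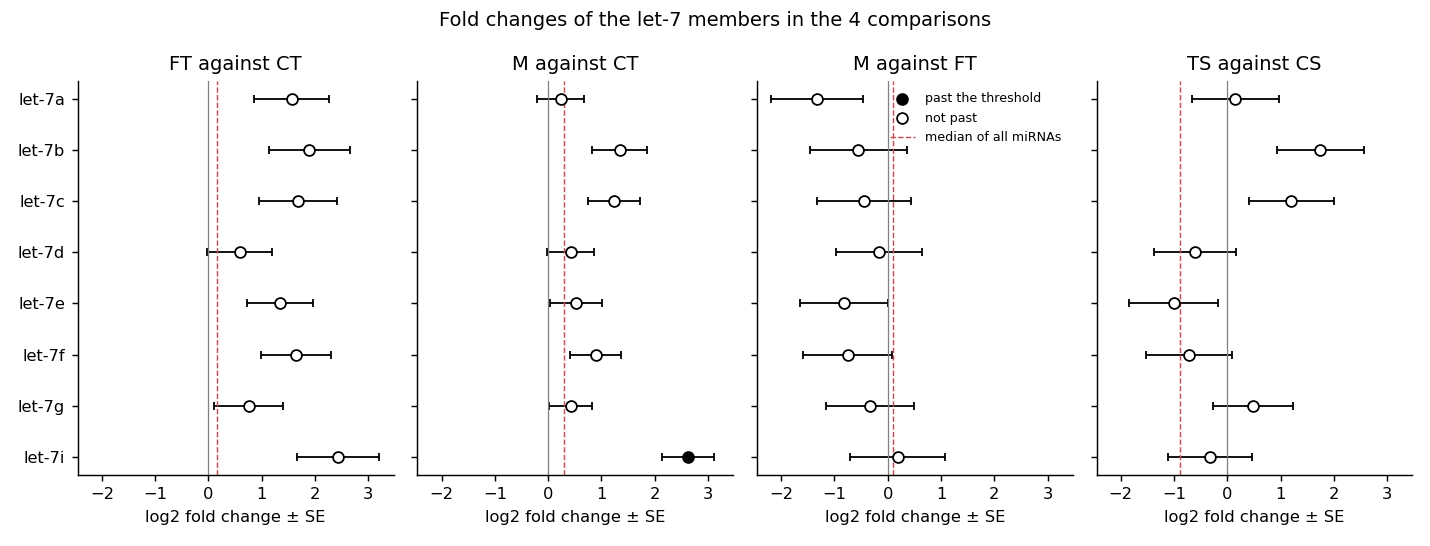
log2 fold changes from edgeR (x axis, points with SE as bars) of the 8 let-7 members in the 4 comparisons, M metastatic tumors, FT doxycycline-induced tubes, CT control tubes, TS plasma of tumor-bearing mice and CS control plasma; filled points passed an adjusted p of 0.05 and the dashed line is the median of all 566 miRNAs. Only let-7i in M against CT, at 2.63, is filled.

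Within the tissue samples the members moved together to different degrees. Over the 28 pairs the Pearson r of log2 normalized counts in the 15 tissue samples ranged from 0.349 to 0.978 with a median of 0.718, and after the group means were removed from 0.284 to 0.974 with a median of 0.842. Over all 9870 pairs of 141 miRNAs the medians were -0.00643 and -0.00167. let-7b and let-7c, which share a cluster on chromosome 15 and differ at 1 base, were closest at 0.978, with let-7b over let-7c between 0.85 and 1.61 in all 15 tissue samples. let-7g was least like the rest, with r of 0.349 to 0.722 to the other members. let-7d and let-7g were closest to each other at 0.722.

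Members were also set beside miRNAs of the same gene cluster, as a description. let-7e followed miR-99b (r = 0.937), and the ratio of the counts was 5.02 to 6.45 in CT, 4.44 to 9.76 in FT and 2.95 to 5.68 in M. Its other cluster neighbor miR-125a-5p did not follow it (r = -0.26), and let-7e over miR-125a-5p was 0.291 to 0.456 in CT, 0.333 to 7.44 in FT and 0.3 to 3.51 in M. let-7a likewise ran apart from miR-125b-5p (r = -0.095), with a ratio of 0.21 to 0.397 in CT and 0.325 to 3.1 in M.

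Of these neighbors miR-125b-5p fell by 1.85 on the log2 scale in M against CT (SE 0.50, edgeR adjusted p = 0.0184), from 12692 to 16028 normalized counts in CT to 1730 to 7096 in M. miR-98, which has the let-7 seed and shares a cluster with let-7f-2, rose by 2.03 (SE 0.53, adjusted p = 0.0158), with 91.8 to 196 in CT and 290 to 1317 in M. It did not overlap, and it followed let-7i (r = 0.954) more closely than let-7f (r = 0.869). The second seed relative, miR-202-3p, stayed at 4 to 160 counts in tissue and gave 0.08 (SE 0.55, adjusted p = 0.932). miR-99a (-0.51, adjusted p = 0.509), miR-99b (0.71, adjusted p = 0.316), miR-100 (-0.95, adjusted p = 0.271) and miR-125a-5p (-1.18, adjusted p = 0.0928) did not pass. Of the 7 relatives and neighbors 1 was higher and 1 was lower past the threshold in M, beside 14.5% of all 566 miRNAs in either direction. In FT 0 of 7 passed, beside 0.177% of all, and in plasma 0 of 7, beside 0 of 566.

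Plasma of tumor-bearing mice against control plasma asks whether the family differs in circulation. No member passed the test, beside 0 of 566 miRNAs. At an unadjusted edgeR p under 0.05 there was 1 of 8 members, let-7b, beside 7.42% of all. let-7b had 848, 1330 and 672 normalized counts in CS2, CS3 and CS4 and 3767, 3682, 3765 and 1522 in TS1 to TS4. All 4 TS values lay above all 3 CS values, with TS4 close to the highest control. The log2 fold change was 1.75 (SE 0.81, edgeR adjusted p = 0.542), and the exact permutation p was 0.0571, where 4 samples against 3 cannot go below 0.0286. 1 of 8 members did not overlap, beside 5.3% of all miRNAs.

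let-7c was 741 to 1359 in CS and 1355 to 3838 in TS (1.2, SE 0.80, adjusted p = 0.570). let-7g (0.48) and let-7a (0.15) were also above 0, and let-7i (-0.33), let-7d (-0.61), let-7f (-0.72) and let-7e (-1.0) below, with SE of 0.76 to 0.83. That is 4 of 8 above 0, beside 19.3% of all miRNAs, whose median was -0.89. This background changed with the treatment of low counts. The median was -0.083 with negative controls subtracted, 0.099 over the 151 miRNAs averaging 20 counts or more and 0.32 over the 95 averaging 50 or more. The members therefore cannot be said to hold up against a general fall. TS2 and TS3 were lowest in let-7d, at 258 and 124 against 1864 to 2194 in CS, while TS4 with 3330 lay above all controls. The let-7e share of the family was 0.436%, 0.424%, 0.521% and 0.946% in TS1 to TS4 and 1.2% to 1.98% in CS, and in TS2 and TS3 it rests on counts not above the highest negative control.

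Circulating miRNA also carries signal from blood cells and liver. The summed normalized counts of 4 erythrocyte miRNAs were 17081 to 44989 in CS and 7721 to 65025 in TS, and those of 3 liver miRNAs 29314 to 37894 in CS and 36388 to 102270 in TS. Their part in the plasma values was not tested.

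Of the 28 ratios 5 did not overlap between TS and CS, 17.9% beside 9.34% of 4465 pairs, and 0 passed after adjustment (smallest adjusted p = 0.659). There were 8 without TS2, 11 without TS4 and 9 without CS3, where the share of all pairs was not computed. let-7b over let-7i went from 0.924 to 4.45 as a geometric mean, at the exact permutation p of 0.0286. The other 4 of the 5 were let-7b and let-7c over let-7e, let-7c over let-7d and let-7c over let-7f. No size is given for the ratios to let-7e, whose counts in TS2 and TS3 were not above the highest negative control. All 5 had let-7b or let-7c in the numerator and let-7d, let-7e, let-7f or let-7i in the denominator.

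Fold changes in FT and in plasma were set against each other in one fit that treated tissue and plasma of a mouse as independent. The difference was largest for let-7i (2.77, SE 1.12), let-7f (2.36, SE 1.09) and let-7e (2.35, SE 0.98), each higher in FT, with edgeR adjusted p of 0.396, 0.453 and 0.396. 0 of 8 members and 0 of 566 miRNAs passed. At 0.27 and 0.14, let-7g and let-7b had the smallest differences, with SE of 1.08 and 1.13.

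Some members held other shares of the family in plasma than in the tissue of the same mice. In the 7 mice with both, let-7g held 1.84% to 23.2% of the family in tissue and 9.01% to 44.8% in plasma and was higher in plasma in 6 of 7, the exception being the mouse of FT3 and TS2. let-7e was lower in plasma in 7 of 7 mice, from 2.85% to 4.59% in tissue to 0.424% to 1.98% in plasma, but in 2 of 7 plasma samples, TS2 and TS3, its counts did not exceed the highest negative control. let-7a was also lower in 7 of 7, and its plasma counts were 97, 1 and 2086 in CS2 to CS4 and 30, 1, 87 and 3052 in TS1 to TS4, so in 3 of 7 plasma samples they did not exceed the highest negative control.

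Of the 28 ratios 8 moved one way in all 7 mice, which is 28.6% beside 38.9% of 7875 pairs of miRNAs. The share within the family was thus not above the background. In plasma, let-7g was 5.82-fold higher relative to let-7f and 2.6-fold higher relative to let-7d, with SDs of 2.17 and 1.72 of the log2 change over 7 mice. Both sizes rest in part on low counts. let-7f had 43 in TS2 and 51 in TS3, where the highest negative controls were 33 and 41, and let-7d had 66 in TS3. The other 6 ratios include a member whose plasma counts did not exceed the highest negative control in 2 or 3 samples, and no size is given for them. They put let-7e below let-7d, let-7g and let-7i, and let-7a below let-7d, let-7f and let-7g. Each had a two-sided exact sign-flip permutation p of 0.0156, the smallest 7 mice allow, and an adjusted p of 0.0402 over the 7875 pairs. Adjusted over the 28 member pairs, as first planned, none of them passed at 0.05.

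**Figure D5:**
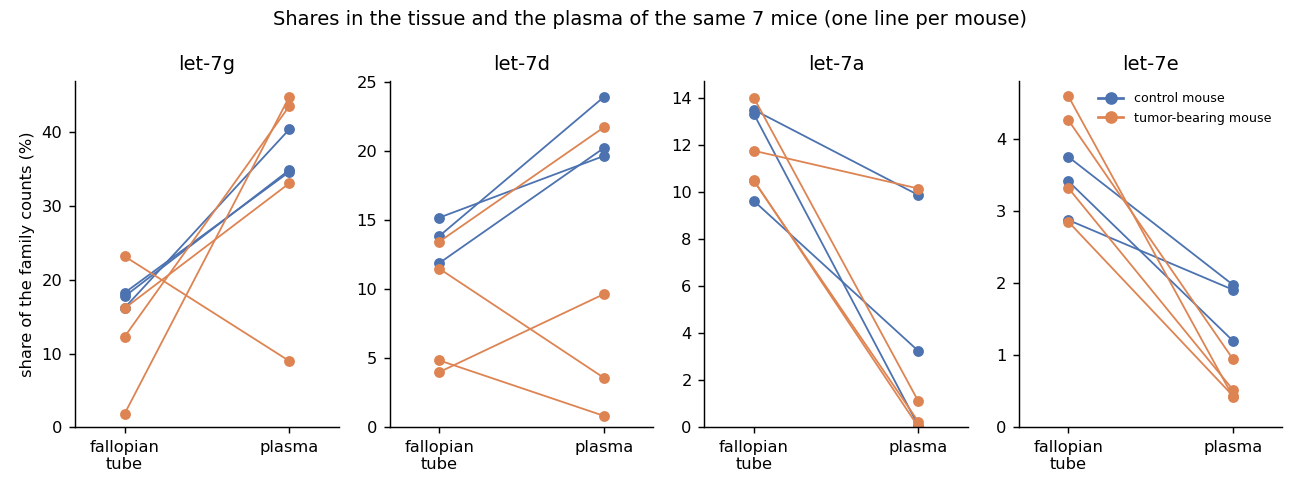
Share of the family counts (y axis, %) of let-7g, let-7d, let-7a and let-7e in the fallopian tube (left) and plasma (right) of the same 7 mice, 1 line per mouse, blue for control mice (CT and CS) and orange for tumor-bearing mice (FT and TS). let-7g is higher in plasma in 6 of 7 mice, let-7a and let-7e are lower in 7 of 7 (with plasma counts not above the highest negative control in 3 and 2 samples), and let-7d rises in the 3 control mice and in 2 of the 4 others.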

How the data were processed

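miRNA was counted with the NanoString nCounter mouse miRNA assay (version 1.5) from 100 ng of tissue RNA or 10 ng of plasma RNA. The authors deposited barcode counts per probe for 22 samples, and whether a correction between similar probes was made before is not given in the sources used here. Groups followed the labels. The mice carried further engineered alleles, which are not reported here. The members, lists and tests were chosen with earlier results of these data known.

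Counts were scaled to the geometric mean of the 100 (tissue) or 30 (plasma) most abundant miRNAs, as the methods did in nSolver 3.0, without background subtraction. Each of the 4 comparisons was fitted with edgeR 4.0.16 (quasi-likelihood, R 4.3.3) on the counts of 566 mouse miRNAs, with Benjamini-Hochberg adjustment and a threshold of 0.05. Log2 ratios between members were compared with two-sided exact permutation tests in scipy 1.17.1. Their adjustment was planned over the 28 member pairs and is given over all pairs of miRNAs averaging 50 counts or more. The named miRNAs were the members, their seed relatives, miRNAs of neighboring genes and, per member, the most correlated non-member. The fits were tested on simulated data. DESeq2 1.42.0 and limma 3.58.1 served as alternatives. The samples come from different mice within a group, and the number of mice limits the precision.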

Additional observations from a re-analysis of the deposited data

Results flagged for a closer look

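In plasma of tumor-bearing mice, let-7b was 3767, 3682 and 3765 normalized counts in TS1, TS2 and TS3 and 1522 in TS4. TS4 lay far from the others, with a gap of 0.975 of the whole range on the log2 scale. It was the only such case among 32 sets of a member and a group of 4 or 5 samples, where chance gives about 1 in 20.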

How the results depend on the processing

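let-7i stayed past the threshold in M against CT except under positive control scaling and ligation control scaling, which, like total count scaling, was chosen after seeing the data. Against 1 member in M against CT, 0 passed under these 2 scalings and 3 with DESeq2, with negative controls subtracted and with a minimum mean count of 20 or 50. Of all miRNAs, 82 of 566 passed in the main fit, and 137 and 48 of 566 under these 2 scalings. There were 124 of 566 with DESeq2, 133 of 566 with negative controls subtracted, and 92 of 253 and 69 of 133 with the 2 minimum counts. Left-out samples gave 1 to 3 members, beside 50 to 101 of 566 miRNAs. Against 0 members in FT against CT, 1 passed with DESeq2, beside 4 of 566 miRNAs. Left-out samples gave 0 to 1 there, beside 0 to 12 of 566. The methods' t-test, unadjusted, called 2 members in TS against CS, beside 24 of 566 miRNAs, and adjusted it called 0 of 566. Ratios without overlap ranged over left-out samples from 0 to 3 in FT against CT, 1 to 8 in M against FT and 5 to 11 in TS against CS. Leaving a sample out can only keep or raise such a count. The share of all pairs was not computed with samples left out, so these counts cannot be set against a background.

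Directions turned as follows (log2). FT against CT under quantile normalization gave let-7d -0.19 and let-7g -0.21. M against CT gave let-7a -0.028 with TMM, -0.79 with positive controls, -0.24 with quantiles, -0.28 with total counts and -0.10 with ligation controls. There positive controls gave let-7c -0.014, let-7e -0.69, let-7f -0.18 and let-7g -0.0699, quantiles let-7d -0.16 and let-7g -0.20, and total counts let-7d -0.0507, let-7e -0.0219 and let-7g -0.0393. M against FT gave, with quantiles, let-7b 0.12, let-7c 0.0901, let-7d 0.059, let-7f 0.0256 and let-7g 0.0818, with limma and the methods' t-test let-7d 0.0098 and let-7g 0.0929, and for let-7i -0.11 with miR-425, -0.12 with positive controls and -0.39 with ligation controls. TS against CS gave let-7a -0.19 with positive controls, -0.76 with quantiles, -1.11 with limma and the t-test and -0.41 with total counts. There TMM gave let-7d 0.56, let-7e 0.14, let-7f 0.45 and let-7i 0.42, miR-425 gave let-7d 0.61, let-7f 0.49 and let-7i 0.25, ligation controls gave let-7d 0.94, let-7e 0.69, let-7f 0.86 and let-7i 0.47, and quantiles gave let-7g -0.68. In the difference between FT and plasma, TMM gave let-7b -0.86, let-7c -0.53 and let-7g -0.27. Left-out samples gave -0.0128 to 0.41 for let-7a in M against CT, -0.93 to 0.0139 for let-7b, -0.75 to 0.0281 for let-7c, -0.41 to 0.12 for let-7d, -0.55 to 0.14 for let-7g and -0.11 to 0.91 for let-7i in M against FT, -2.55 to 1.45 for let-7a in TS against CS, and -0.42 to 0.44 for let-7b and -0.19 to 0.57 for let-7g in the difference. The cause was not tested.

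Sample numbers in the labels were not taken as pairs, since same-numbered samples did not all deviate together (correlations of deviations -0.411 to 0.322). Some FT and M samples share a mouse, but which ones is not named in the sources used here. With the replicate block, let-7i in M against CT was 2.61 (edgeR adjusted p = 0.00748), M against FT gave let-7b 0.0413, let-7c 0.10 and let-7g 0.0295, and TS against CS gave let-7g -0.27. With the block 90 of 566 miRNAs passed in TS against CS, with 0 members, against 0 without it. Over all 566 miRNAs, calls in M against CT were 82 (58 higher), 151 (83 higher) with TMM, 137 (24 higher) with positive controls, 113 (42 higher) with total counts and 48 (39 higher) with ligation controls. Low counts of let-7a and let-7e, and in some samples of let-7f and let-7d, limit the plasma values of these members.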
